A study of Mus musculus with 18 samples.

Results

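In mouse embryonic stem cells, 246 of 56551 genes and transcripts were near silent in 5 genotypes and present at a mean of 2 TPM or more only in cells lacking all 6 Pcgf genes. TPM is the share of one gene's transcripts in a library, scaled to a total of 1000000. A gene was a member when its mean over the 3 libraries of the Pcgf sextuple knockout (Pcgf-6KO) was at least 2 TPM and its mean was under 1 TPM in each of the 5 other groups. All 6 group means chose the members, so their levels and differences are given as a description and carry no test. The control group was WT, followed by knockouts of Ring1a (Ring1a-KO), of Ring1b (Ring1b-KO) and of both (Ring1a/b-dKO). Pcgf-4KO lacked Pcgf1, Pcgf3, Pcgf5 and Pcgf6, and Pcgf-6KO lacked Pcgf2 and Pcgf4 (gene Bmi1) as well. RNA-seq was made from total RNA with 3 libraries per group. The sources used here do not give the parental line, clone number, culture medium or the way each gene was disrupted, and do not say if replicates were separate cultures.

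Polycomb repressive complex 1 places ubiquitin on a core histone and holds developmental genes silent. Its catalytic subunit is Ring1a or Ring1b, and each complex carries 1 Pcgf protein. Pcgf2 and Pcgf4 build the canonical complexes that read the Polycomb methyl mark, and the other Pcgf proteins build variant complexes. In embryonic stem cells the best known targets are developmental regulators such as the Hox genes, and variant complexes with Pcgf6 also silence germline genes.

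Each library summed to 1000000 TPM within rounding, and because TPM keeps no read counts the sequencing depth cannot be known and intervals for counting error are left out. Between 16236 and 16585 genes reached 1 TPM in the Pcgf-6KO libraries, against 14207 to 15835 in the others. Mitochondrially encoded transcripts took 3.58% to 4.65% of the total in Pcgf-6KO and 5% to 7.34% elsewhere. The part of these differences in the member levels was not tested. All 12 embryonic stem cell markers of the list used were at a mean of 1 TPM or more in every group. Their sum was 1318 to 1364 TPM in Pcgf-6KO against 3401 to 3445 TPM in WT. It was also under WT in Ring1a/b-dKO, at 2312 to 2347 TPM, and in Pcgf-4KO, at 2459 to 2492 TPM. Of the targeted genes, Pcgf6 stood at 53 TPM in WT and 10.6 TPM in Pcgf-6KO, Pcgf2 at 68.6 and 16.8 TPM, and Pcgf1 at 10.9 and 3.03 TPM. Pcgf3 stood at 13.2 and 12.4 TPM, while Bmi1, at 1.6 and 15.6 TPM, and Pcgf5, at 9.55 and 22.1 TPM, were higher in the knockout. In Pcgf-4KO, Pcgf6 and Pcgf1 were at 0.057 and 1.23 TPM, and Pcgf3 and Pcgf5 at 11.8 and 14.5 TPM. Ring1, the gene of Ring1a, stood at 7.21 TPM in WT, 4.05 TPM in Ring1a-KO and 2.74, 6.12 and 9.4 TPM in Ring1a/b-dKO, where the library labelled replicate 3 lay above all WT libraries. Without that library the number of members was 241. Rnf2, the gene of Ring1b, stood at 71.3 TPM in WT, 49.4 TPM in Ring1b-KO and 22.8 TPM in Ring1a/b-dKO. Gene totals of this kind cannot reveal a deleted exon, so the genotypes are used as labelled. In bulk RNA, a change in the number of cells that express a gene and a change in RNA per cell cannot be told apart.

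The sequence upstream of the members was examined because Polycomb targets in these cells are mostly genes with CpG-rich promoters. RefSeq promoters (GRCm38.p6, 250 bases before to 50 after the start) were matched to 38 of the 69 protein-coding members. Their median ratio of observed to expected CpG was 0.27, and 10 of 38 (26.3%) reached 0.6. Over 10239 protein-coding genes tested here the median was 0.763 and 72.4% reached 0.6, and over 4250 protein-coding genes under 1 TPM in all 6 groups the median was 0.205 and 10.6% reached 0.6. The member promoters therefore lay nearer to those of genes silent in all 6 groups than to those of genes with measurable RNA. The CpG-rich minority was Bbof1, BC049762, Hist1h1e, Hlf, Enkur, Nr4a3, Itprip, Zmynd12, Fosb and Nap1l5. The 250 bases before the start are shown for 5 members that span this range, 5′ to 3′ on the gene's strand. Capitals mark CpG in all but Sprr1a, which has none and where they mark both matches to the AP-1 motif TGACTCA, each on the opposite strand as TGAGTCA.
Fosb, chr7:19310046-19310295, minus strand, 19 CpG: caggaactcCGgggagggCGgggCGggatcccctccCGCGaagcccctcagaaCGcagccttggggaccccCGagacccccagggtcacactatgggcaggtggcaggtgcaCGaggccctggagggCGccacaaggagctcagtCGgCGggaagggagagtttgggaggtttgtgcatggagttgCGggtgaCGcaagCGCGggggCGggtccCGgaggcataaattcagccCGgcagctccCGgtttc
Hoxa2, chr6:52164832-52165081, minus strand, 6 CpG: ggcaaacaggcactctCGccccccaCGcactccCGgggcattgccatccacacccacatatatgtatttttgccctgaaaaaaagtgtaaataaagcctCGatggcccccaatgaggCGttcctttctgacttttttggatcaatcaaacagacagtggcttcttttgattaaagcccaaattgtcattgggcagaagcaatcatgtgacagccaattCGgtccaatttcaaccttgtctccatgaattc
Hist1h2aa, chr13:23934187-23934436, plus strand, 6 CpG: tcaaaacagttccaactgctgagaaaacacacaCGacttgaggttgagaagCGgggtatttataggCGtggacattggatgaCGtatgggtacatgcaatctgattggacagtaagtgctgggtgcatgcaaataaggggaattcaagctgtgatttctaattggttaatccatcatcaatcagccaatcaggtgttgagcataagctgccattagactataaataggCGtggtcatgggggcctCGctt
A430089I19Rik, chr5:94306797-94307046, minus strand, 1 CpG: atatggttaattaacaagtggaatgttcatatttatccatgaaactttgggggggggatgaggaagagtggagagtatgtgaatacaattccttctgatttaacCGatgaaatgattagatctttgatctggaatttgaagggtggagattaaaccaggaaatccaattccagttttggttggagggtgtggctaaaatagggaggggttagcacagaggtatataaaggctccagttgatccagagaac
Sprr1a, chr3:92485882-92486131, minus strand, 2 AP-1 matches: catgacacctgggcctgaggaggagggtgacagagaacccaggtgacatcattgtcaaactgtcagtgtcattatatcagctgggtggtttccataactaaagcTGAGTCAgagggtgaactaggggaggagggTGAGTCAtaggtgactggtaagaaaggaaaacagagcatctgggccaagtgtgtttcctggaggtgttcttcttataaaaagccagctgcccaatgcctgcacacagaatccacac

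The 38 promoters, 300 bases each, were also searched on both strands for 6 motifs. Shares are given beside those of all 17704 promoters and of the 4250 silent protein-coding genes above. The cyclic AMP response element TGACGTCA was found in 4 of 38 (10.53%), those of BC049762, Gm648, H2-Aa and Hlf, against 2.44% of all promoters and 1.11% of silent genes. AP-1 (TGACTCA) was found in 3, those of Fas, Serpinb8 and Sprr1a, and this share of 7.89% was above the 4.81% of all promoters and close to the 7.72% of silent genes. The E-box CACGTG was found in Enkur and Fas (5.26% against 8.22% and 4.35%) and the E2F6-type motif GGCGGGAA in Fosb alone (2.63% against 3.07% and 0.66%). The T-box site TCACACCT was found in none of the 38, against 1.2% and 1.76%, nor was the Dux-type motif, against 0.2% and 0.4%. No motif searched was held by more than 4 of these 38 promoters.

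The same rule was applied with every other group in the place of Pcgf-6KO, to show how many genes it returns for a group taken as the high one. It returned 26 genes for WT, 31 for Ring1a-KO, 72 for Ring1b-KO, 51 for Ring1a/b-dKO and 24 for Pcgf-4KO, against 246 for Pcgf-6KO. Most of the difference lay in genes seen in every library of the high group. Genes above 0 in all 3 libraries numbered 11, 4, 38, 28 and 5 in the same order, against 196 of the 246. Genes listed at 0 in 2 of the 3 libraries numbered 12, 22, 22, 22 and 19, against 41. With each of the 18 libraries required to be on its side of the threshold, 64 members were left, and 4, 1, 9, 5 and 0 genes for the other groups.

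**Figure D1:**
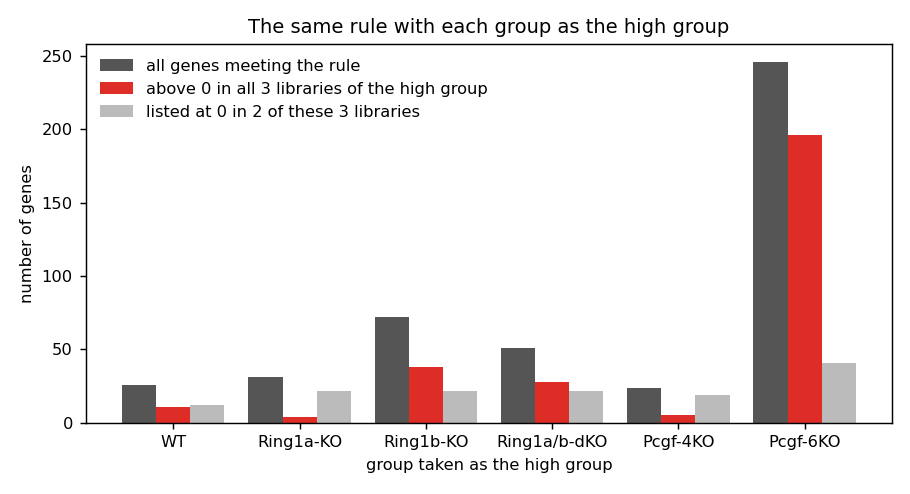
Number of genes that met the same rule with each group taken as the high group (x axis), in all, above 0 in all 3 libraries of that group, and listed at 0 in 2 of them (y axis, number of genes). Pcgf-6KO returned 246 genes, of which 196 were above 0 in all 3 libraries, against at most 72 and 38 for any other group.

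Members were mostly at low levels in Pcgf-6KO as well. The median of the 246 Pcgf-6KO means was 3.11 TPM (quartiles 2.37 and 5.04 TPM), and 117 members were between 2 and 3 TPM. The medians of the group means were 0.04 TPM for WT, 0.035 for Ring1a-KO, 0.24 for Ring1b-KO, 0.232 in Ring1a/b-dKO and 0.227 in Pcgf-4KO. Over the 205 members above 0 in 2 or 3 Pcgf-6KO libraries these medians were 0.0933, 0.0867, 0.343, 0.32 and 0.317 TPM, and the Pcgf-6KO median was 2.75 TPM. In both sets WT and Ring1a-KO lay together at the bottom, and the 3 other low groups lay together above them. Members listed at 0 in all 3 libraries numbered 106 for WT, 109 for Ring1a-KO, 66 for Ring1b-KO, 68 in Ring1a/b-dKO and 52 in Pcgf-4KO. In the separate Pcgf-6KO libraries 189, 170 and 188 members reached 2 TPM, and 114 reached it in all 3. In the 15 other libraries 0 to 2 members reached 2 TPM. All 3 Pcgf-6KO libraries lay above all 15 others for 178 members, where 17.6% of the 17842 genes tested showed such a pattern. The rule favours this pattern, so nothing is read from the comparison.

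Each Pcgf-6KO library was then set aside in turn and members were chosen on the means of the 2 others. With the first set aside, 61.2% of the 237 genes chosen were at 2 TPM or more in it and 28 were at 0. With the second, these were 59.2% of 255 genes and 47 at 0, and with the third 62.8% of 239 genes and 47 at 0. Many genes chosen on 2 libraries thus missed the same threshold in the other one. Among the chosen genes above 0 in both of the 2 libraries (204, 212 and 197 genes), 68.6%, 69.3% and 74.6% reached 2 TPM in the library set aside. In these same sets 94.6%, 90.1% and 90.4% reached 1 TPM in it, and 3, 9 and 8 genes were at 0. The median level in it was 2.42, 2.38 and 2.73 TPM, so many of the misses lay not far under the threshold.

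By annotation the members were 69 protein-coding genes, 68 transcripts with identifiers beginning MSTRG that the annotation used here does not hold, 40 long non-coding RNAs, 35 pseudogenes, 33 small RNAs and 1 further identifier without annotation. The classes differed in how many Pcgf-6KO libraries carried them. Of the protein-coding members 66 of 69 were above 0 in all 3 libraries, as were 64 of 68 MSTRG transcripts, 37 of 40 long non-coding RNAs and 27 of 35 pseudogenes. Of the small RNAs 2 of 33 were. In all, 41 members rested on 1 Pcgf-6KO library, 24 on the first, 7 on the second and 10 on the third, and 39 of them were listed at 0 in the other 17 libraries. Their median exon length was 126 bases, against 1443 bases for the 138 annotated members seen in 2 or 3 libraries. The 41 comprised 28 small RNAs, 7 pseudogenes, 3 long non-coding RNAs, 1 protein-coding gene, 1 MSTRG transcript and 1 other identifier.

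**Figure D2:**
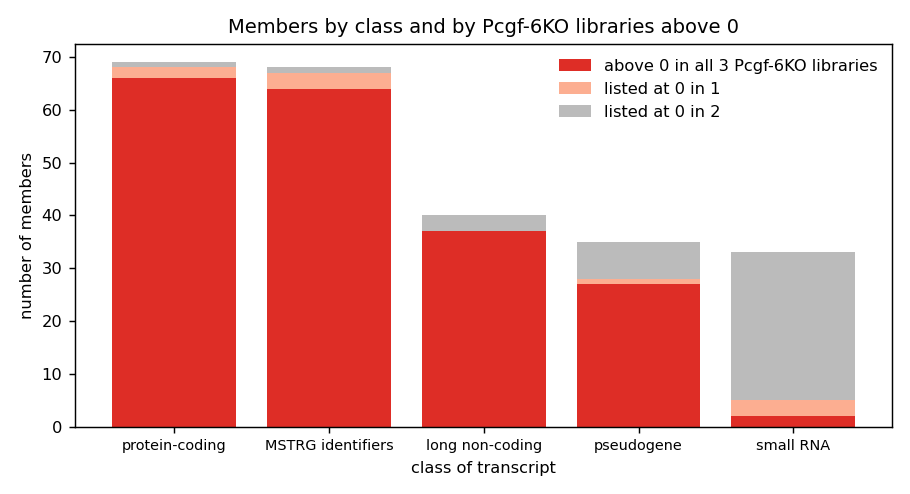
Number of members (y axis) in each class of transcript (x axis), divided by how many of the 3 Pcgf-6KO libraries were above 0. Of the 33 small RNAs 28 were listed at 0 in 2 of the 3 libraries, against 1 of 69 protein-coding genes.

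The highest mean of any member, 54.3 TPM, belonged to Gm26391, a ribosomal RNA gene copy at 0, 162.8 and 0 TPM in the 3 Pcgf-6KO libraries and 0 elsewhere. The next were Gm22411 at 82.9, 26.5 and 0 TPM and Gm22907 at 58.4, 42.8 and 0 TPM, both annotated as microRNA genes. Each of these was listed at 0 in at least 1 Pcgf-6KO library and in all 15 other libraries. Other ribosomal RNA copies that met the rule, n-R5s121, n-R5s113 and n-R5s122, stood at 93.5, 73.5 and 73.5 TPM in the first library and at 0 in the other 17. Mir1983 was at 25.7, 34.5 and 0 TPM. For such short transcripts the rule was met through 1 or 2 libraries. Counts over all members or all protein-coding members include such genes.

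Among protein-coding members the highest mean belonged to Gm10217 (15.5 TPM), which was at 46.6 TPM in the third Pcgf-6KO library and at 0 in the other 17. Rhox12 (ENSMUSG00000071766, GRCm38 chromosome X, 38104077 to 38110907), a homeobox gene of the X-linked reproductive cluster, followed at 11, 13.2 and 12.9 TPM, a mean of 12.4 ± 1.2 TPM (SD, n = 3). Its group means elsewhere were 0.07 for WT, 0.037 for Ring1a-KO, 0.347 for Ring1b-KO, 0.123 in Ring1a/b-dKO and 0.32 in Pcgf-4KO. All 3 Pcgf-6KO libraries lay far above the 15 others, of which the highest was 0.61 TPM. On the log2(TPM + 1) scale it was 3.64 ± 0.12 (SE) higher than in WT. Rhox5 and Rhox13 of the same cluster did not share this pattern, as they stood at 934 and 129 TPM in Pcgf-4KO and 984 and 78.6 TPM in Pcgf-6KO.

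Vmn1r9 (ENSMUSG00000091541, chromosome 6, 57066787 to 57074906), a vomeronasal receptor gene, had close values in the 3 libraries of Pcgf-6KO. It was at 11, 10.3 and 11.3 TPM in Pcgf-6KO (mean 10.9 ± 0.49 TPM), with no other library above 0.33 TPM. The other chemosensory receptors were lower. Vmn2r7 stood at 2.45, 2.47 and 1.81 TPM, with at most 0.3 TPM in any other library. Olfr1510, an odorant receptor gene, stood at 2.03, 2.78 and 4.07 TPM and was listed at 0 in all other libraries except Pcgf-4KO replicate 2, at 0.3 TPM. For these 3 receptors the Pcgf-6KO libraries did not overlap the others, a pattern that the rule favours. Reads can be divided between copies where genes share sequence, which was measured as the percentage of a gene's 25-base words found in transcripts of other genes. It was 72.5% for Vmn2r7, and among members described further on 78.7% for Adam1a, 46.7% for Hist1h2ba and 44.3% for Apol7c, so their single values are uncertain. In all, 20 of the 63 protein-coding members with a transcript sequence shared 50% or more.

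**Figure D3:**
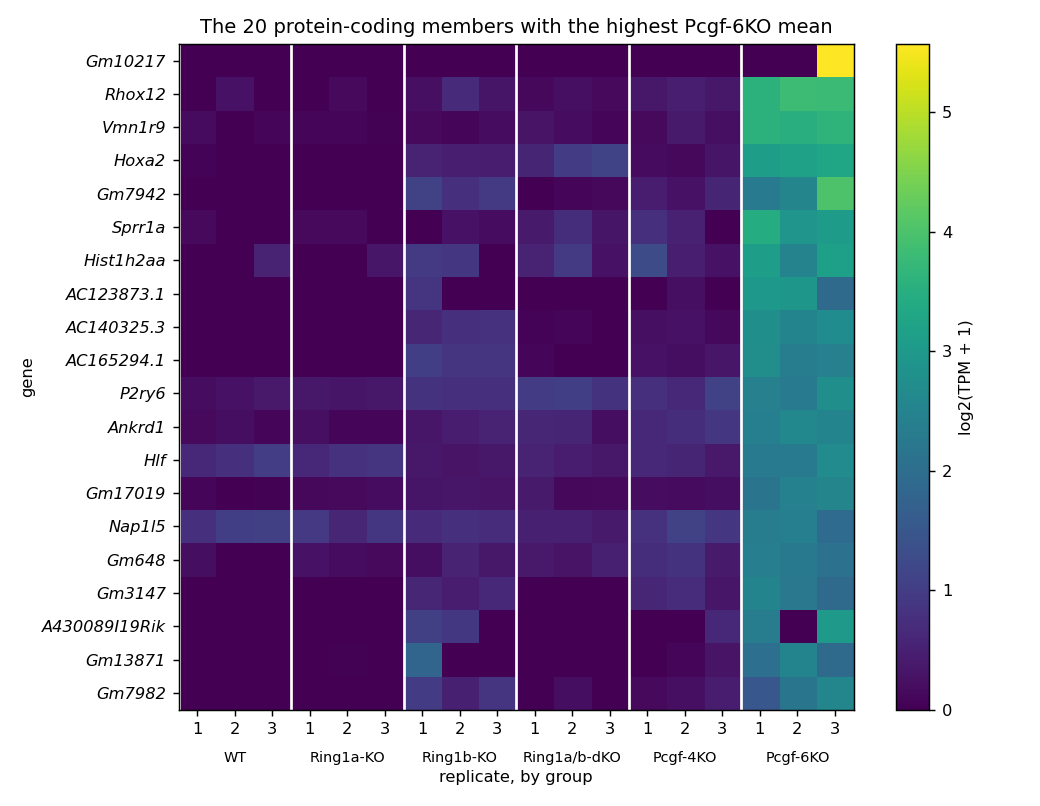
Level on the log2(TPM + 1) scale (colour) of the 20 protein-coding members with the highest Pcgf-6KO mean (rows) in each of the 18 libraries (columns, numbered by replicate and grouped by genotype). All but Gm10217 and A430089I19Rik were above 0 in all 3 Pcgf-6KO libraries.

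The protein-coding members were grouped by role after their values were seen. The rule favours Pcgf-6KO libraries above all others, which 17.6% of all genes tested showed, so nothing is read from such counts by role. Those that code for transcription factors and cofactors were Hoxa2, Rhox12, Hlf, Nr4a3, Fosb and Ankrd1, and all 6 were at 2 TPM or more in each Pcgf-6KO library. Hoxa2 (ENSMUSG00000014704, chromosome 6, 52162417 to 52164831), which patterns the hindbrain and the second branchial arch, was at 7.55, 8.1 and 8.74 TPM in Pcgf-6KO. It was at 0.5, 1 and 1.22 TPM in Ring1a/b-dKO, 0.47, 0.38 and 0.36 TPM in Ring1b-KO and 0.12, 0.08 and 0.25 TPM in Pcgf-4KO. In WT 1 library was at 0.04 TPM and the other 2 at 0, and all 3 Ring1a-KO libraries were at 0. The groups thus stood in the order Pcgf-6KO, Ring1a/b-dKO, Ring1b-KO, Pcgf-4KO, with no overlap between neighbours. Hoxa2 was the only member among the 39 Hox genes of the list used, and its neighbours Hoxa3 and Hoxa5 were kept out by their level in other knockouts. Hoxa3 stood at 1.84 TPM in Ring1a/b-dKO, 0.377 in Pcgf-4KO and 3.21 in Pcgf-6KO, and Hoxa5 at 2.25, 0.377 and 4.66 TPM. Of 37 Hox genes tested, all 37 were called higher in Pcgf-6KO than in WT (limma, adjusted p under 0.05; median log2 difference 2.38, against 0.332 over all genes tested, of which 51.7% were called higher). All 37 were also called higher than in Pcgf-4KO (median 1.61 against 0.03, and 28.8% of all genes called higher). Against Ring1a/b-dKO 11 were higher and 9 lower (median 0.17 against -0.009, with 28.3% and 29.6% of all genes). The 37 include Hoxa2, which the rule chose on these same means. A Hox gene near silent in WT, such as Hoxa3 at 0.02 TPM, can enter the fit only by being raised in a knockout. The filter thus favours higher calls against WT, and the Hox counts are a description.

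Hlf, a leucine zipper factor of the circadian output and blood stem cell programmes, was one of the few members whose WT level exceeded that of the other low groups. It stood at 0.53, 0.69 and 1.01 TPM in WT, 0.54, 0.74 and 0.78 TPM in Ring1a-KO, and 3.95, 3.83 and 5.41 TPM in Pcgf-6KO. Its means in Ring1b-KO, Ring1a/b-dKO and Pcgf-4KO were 0.267, 0.373 and 0.447 TPM. All libraries of Ring1b-KO, and all of Ring1a/b-dKO, lay below the lowest WT library, as did 2 of the 3 in Pcgf-4KO, and the other one equalled it. Ankrd1 (ENSMUSG00000024803, chromosome 19, 36111961 to 36120099), a stretch-responsive cofactor of muscle, was at 4.31, 5.07 and 4.68 TPM in Pcgf-6KO, 0.56, 0.67 and 0.83 TPM in Pcgf-4KO and 0.11, 0.16 and 0.07 TPM in WT. The Pcgf-4KO libraries lay above those of WT and well under those of Pcgf-6KO.

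Nr4a3, an orphan nuclear receptor induced early by many stimuli, stood at 2.42, 2.34 and 2.87 TPM in Pcgf-6KO, 0.62, 0.62 and 0.64 TPM in Ring1a/b-dKO and 0.35, 0.34 and 0.55 TPM in Pcgf-4KO. Its WT libraries were at 0.01, 0.06 and 0.05 TPM, so each of these knockouts lay above WT. Fosb, a subunit of the AP-1 factor, stood at 2.02, 2.01 and 2.33 TPM in Pcgf-6KO, with a mean of 0.57 TPM in Pcgf-4KO and 0.193 TPM in WT. Of 5 other early-response genes, named after their values were seen, none met the rule and not all were higher in Pcgf-6KO. Fos went from 1.65 TPM (WT) to 14.6 TPM (Pcgf-4KO) and 18.9 TPM (Pcgf-6KO), Jun from 3.67 to 35.6 and 79.2 TPM, and Nr4a1 from 14.8 to 49.1 and 72.2 TPM. Nr4a2 went from 0.17 to 0.98 and 1.79 TPM, under the 2 TPM of the rule. Egr1 went the other way, from 15.9 TPM in WT to 12.3 TPM in Pcgf-4KO and 6.55 TPM in Pcgf-6KO (log2 difference from WT -1.17 ± 0.06 SE, limma, adjusted p = 1.83e-10). A lower level of Egr1 was not particular to the Pcgf knockouts. Its means were 4.28 TPM in Ring1a-KO and 5.73 TPM in Ring1b-KO, and 23.8 TPM in Ring1a/b-dKO, above WT.

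Histone genes and a nucleosome assembly factor made up 4 members. Hist1h2aa and Hist1h2ba code for the testis forms of histones H2A and H2B and lie head to head on chromosome 13, with 306 bases between their starts. Hist1h2aa was at 7.63, 4.6 and 7.85 TPM in Pcgf-6KO and Hist1h2ba at 1.69, 3.05 and 2.18 TPM. Elsewhere Hist1h2aa reached 1.47 TPM in Pcgf-4KO replicate 1, with group means of 0.53 to 0.69 TPM in Ring1b-KO, Ring1a/b-dKO and Pcgf-4KO, and Hist1h2ba had means of 0.157 to 0.177 TPM. Both genes were highest in all 3 Pcgf-6KO libraries, and the shared stretch between them is largely the sequence shown for Hist1h2aa. Hist1h1e, a linker histone gene, stood at 2.49, 2.44 and 3.19 TPM against 0.453 TPM in WT. Nap1l5, an imprinted gene expressed from the paternal allele, had a WT mean of 0.95 TPM, near the limit of the rule, 0.373 TPM in Ring1a/b-dKO and 4.18, 4.29 and 2.84 TPM in Pcgf-6KO.

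Of the members that act at epithelial surfaces, Sprr1a (ENSMUSG00000050359, chromosome 3, 92483952 to 92485895), a precursor of the cornified envelope of skin, was at 9.99, 6.45 and 7.31 TPM in Pcgf-6KO. Its means were 0.037 TPM for WT, 0.067 for Ring1a-KO, 0.113 for Ring1b-KO, 0.403 in Ring1a/b-dKO and 0.377 in Pcgf-4KO. Sprr1b of the same family reached 0.293 TPM in Pcgf-6KO, and Sprr3 was listed at 0 throughout. S100a7a, a calcium-binding protein of inflamed skin, stood at 3.11, 3.58 and 2.73 TPM, and Psca, a surface antigen of epithelia, at 2.39, 3.17 and 2.25 TPM. Tmprss13, a membrane serine protease, stood at 2.6, 2.75 and 2.52 TPM in Pcgf-6KO, 0.78, 1.01 and 0.89 TPM in Pcgf-4KO and 0.1, 0.18 and 0.23 TPM in WT. For all 4 the Pcgf-6KO libraries lay above every other library, which the rule favours, and in 3 of the 4 Ring1a/b-dKO was the next group. The 22 other stratified epithelium markers of the list summed to 992 to 1089 TPM in Pcgf-6KO, 417 to 444 in Pcgf-4KO, 483 to 494 in Ring1a/b-dKO and 124 to 130 in WT, and 2 of the 22 were at 0 in Pcgf-6KO. Only 7 of the 22 were at a mean of 1 TPM or more in Pcgf-6KO, against 7, 8 and 6 in the same other groups, so a minority of the list carried these sums. Their part in the level of Sprr1a was not tested.

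Serpins, which inhibit proteases, gave 5 members. Serpinb9c, Serpinb9d and Serpinb9e lie side by side on chromosome 13, from 33149275 to 33260850, and are relatives of the granzyme B inhibitor Serpinb9. Serpinb9e stood at 2, 2.22 and 3.06 TPM in Pcgf-6KO, 0.97, 0.7 and 0.82 TPM in Ring1b-KO, 0.45, 0.71 and 0.72 TPM in Pcgf-4KO and 0, 0 and 0.04 TPM in Ring1a/b-dKO. Serpinb9d stood at 2.41, 2.03 and 2.67 TPM, with means of 0.637, 0.69 and 0.02 TPM in the same 3 groups, and Serpinb9c at 1.88, 2.07 and 2.09 TPM, with 0.12, 0.24 and 0.023 TPM. For Serpinb9d and Serpinb9e, all libraries of Ring1b-KO and Pcgf-4KO thus lay above those of WT and Ring1a/b-dKO, while for Serpinb9c Ring1b-KO overlapped both. The transcripts share 19.4% to 54.2% of their 25-base words with other genes, so reads could have been divided between copies and single values are uncertain. Serpinb9b, in the same family, was outside the rule at 12.5 TPM in Pcgf-4KO and 47.3 TPM in Pcgf-6KO. Serpinb8 stood at 1.83, 2.7 and 2.61 TPM in Pcgf-6KO, and Serpinf2, the plasmin inhibitor of plasma, at 2.28, 2.37 and 2.54 TPM.

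A mixed set of immune and signalling genes held 12 members, of which 10 had Pcgf-6KO libraries above all others, a pattern that the rule favours. P2ry6 (ENSMUSG00000048779, chromosome 7, 100937630 to 100974649), a receptor for extracellular uridine nucleotides, was at 4.4, 3.9 and 5.85 TPM in Pcgf-6KO. It was at 0.99, 1.04 and 0.76 TPM in Ring1a/b-dKO, 0.7, 0.53 and 1.1 TPM in Pcgf-4KO, 0.75, 0.68 and 0.69 TPM in Ring1b-KO and 0.14, 0.21 and 0.3 TPM in WT. These 3 knockouts lay above WT, and Pcgf-4KO overlapped both of the others. Fas, the death receptor, stood at 2.86, 2.83 and 3.66 TPM in Pcgf-6KO and 0.66, 1.1 and 0.94 TPM in Ring1a/b-dKO. H2-Aa, a chain of the class II histocompatibility complex, stood at 2.87, 2.38 and 2.74 TPM, and H2-M2 of class I at 2.34, 1.99 and 2.85 TPM. H2-Ab1, also of class II, was outside the rule. Its means were 0.893 TPM in WT, 5.39 in Ring1b-KO, 10.04 in Ring1a/b-dKO, 5.1 in Pcgf-4KO and 6.78 in Pcgf-6KO. The chemokine gene Ccl2 was at 1.82, 1.62 and 2.57 TPM, and Ccl9 at 3.72, 0.77 and 2.8 TPM, a spread that overlapped Pcgf-4KO (0.81, 0.2 and 0.93 TPM). Of the 36 chemokine and cytokine genes of the list, Ccl2 was the only member, and of the 13 tested 7 were called higher and 4 lower in Pcgf-6KO than in WT (median 0.43 against 0.332 over all genes tested, of which 51.7% were called higher and 22.5% lower). The 13 include Ccl2, which the rule chose, so these counts are a description. The lists of 25 blood and immune cell markers, 24 interferon-stimulated genes and 30 chemokine and cytokine receptors held no member.

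The 6 other genes of this set were Rhoh, Tshb, Fgf14, Itprip, Lrrc4 and Apol7c. Rhoh stood at 2.42, 1.96 and 2.01 TPM in Pcgf-6KO and at 0.78, 0.91 and 0.97 TPM in Pcgf-4KO, above the 0.64 TPM of Ring1b-KO and the 0.203 TPM of Ring1a/b-dKO. Apol7c, an apolipoprotein L gene, was at 1.99, 1.71 and 2.37 TPM and at most 0.11 TPM in any other library. Fgf14, an intracellular regulator of sodium channels, was at 2.85, 2.58 and 2.92 TPM, with group means of 0.207 to 0.463 TPM elsewhere. Itprip varied in all groups, with 2.66 TPM in Ring1a/b-dKO replicate 1, inside the range of Pcgf-6KO (2.06, 2.16 and 4.02 TPM). Tshb and Lrrc4 had Pcgf-6KO means of 2.07 and 2.13 TPM. The 25 blood and immune cell markers of the list summed to 144 to 158 TPM in Pcgf-6KO, 149 to 155 in Ring1a/b-dKO, 140 to 145 in Pcgf-4KO and 65.4 to 71.2 in WT. Of the 25, 10 were at a mean of 1 TPM or more in Pcgf-6KO and 6 in WT. Of the 11 tested, 7 were called higher and 1 lower in Pcgf-6KO than in WT (limma, adjusted p under 0.05). Over all genes tested 51.7% were called higher and 22.5% lower. Ptprc, 1 of the 25, was at a mean of 0.037 TPM or less in every group. The part of these markers in the member levels was not tested.

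Members with a role in meiosis, sperm or cilia were Meikin, Meig1, Enkur, Zmynd12, Bbof1, Lyzl4 and Adam1a. Their Pcgf-6KO means were 2.12 to 3.06 TPM, and the Pcgf-6KO libraries of all 7 lay above all others, a pattern that the rule favours. Zmynd12, a zinc finger gene of cilia, was at 2.25, 2.3 and 1.97 TPM in Pcgf-6KO, 0.63, 1.28 and 0.75 TPM in Pcgf-4KO and 0.05, 0.14 and 0.24 TPM in WT. Meikin, which protects sister centromeres in meiosis, was at 1.71, 2.11 and 2.55 TPM against means of 0.243 to 0.57 TPM elsewhere. Bbof1, a basal body gene, and the sperm-related gene Adam1a had means of 0.913 and 0.87 TPM in Pcgf-4KO, near the limit. No gene of the 33 germ cell and testis markers was a member, and their sum was 603 to 643 TPM in Pcgf-6KO against 717 to 738 TPM in Pcgf-4KO and 98.3 to 99.1 TPM in WT. The sum of the germline markers was thus higher in Pcgf-4KO than in Pcgf-6KO. The remaining annotated members were Trim72 and Mybphl of striated muscle, the amylase gene Amy1 and the deubiquitinase gene Usp17lb, with Pcgf-6KO means of 2.06 to 3.09 TPM.

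The last 10 protein-coding members carry predicted gene or clone names, and Gm10217 was one of them. Gm17019, on chromosome 5 outside the stretch described next, was at 3.45, 4.42 and 4.77 TPM in Pcgf-6KO and at most 0.33 TPM in any other library. Gm648, on the X chromosome, was at 4.22, 3.79 and 3.2 TPM, with 0.65, 0.76 and 0.33 TPM in Pcgf-4KO and at most 0.45 TPM elsewhere. Gm13871 was at 3.11, 4.72 and 2.81 TPM, and its Ring1b-KO mean of 0.833 TPM came from replicate 1 alone, at 2.5 TPM. The Pcgf-6KO libraries lay above all others in each of these 3. Gm17019 and Gm13871 shared 86.7% and 100% of their 25-base words with other genes, so their single values are uncertain.

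A stretch of chromosome 5 from 93694994 to 95746617 (GRCm38) held 12 members, 8 protein-coding and 4 pseudogenes, among 43 genes of the table. Their function is not named by the annotation. In Pcgf-6KO the 12 members had means of 2.2 to 8.03 TPM. In Ring1b-KO their means were 0.083 to 0.93 TPM, in Pcgf-4KO 0.06 to 0.557, in Ring1a/b-dKO 0 to 0.06 and in WT at most 0.013 TPM, and all were at 0 in Ring1a-KO. Summed over the 12, the libraries were at 43.2, 31.7 and 53.5 TPM in Pcgf-6KO, 7.1, 7.47 and 7.35 TPM in Ring1b-KO and 2.46, 2.51 and 4.36 TPM in Pcgf-4KO. The Ring1a/b-dKO sums were 0.14, 0.37 and 0.22 TPM, and those of WT at most 0.04 TPM. The order of the groups was thus Pcgf-6KO, Ring1b-KO, Pcgf-4KO, Ring1a/b-dKO and then WT, with no overlap between neighbours. The rule puts Pcgf-6KO first and holds the other groups under 1 TPM per copy, so this order is a description.

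**Figure D4:**
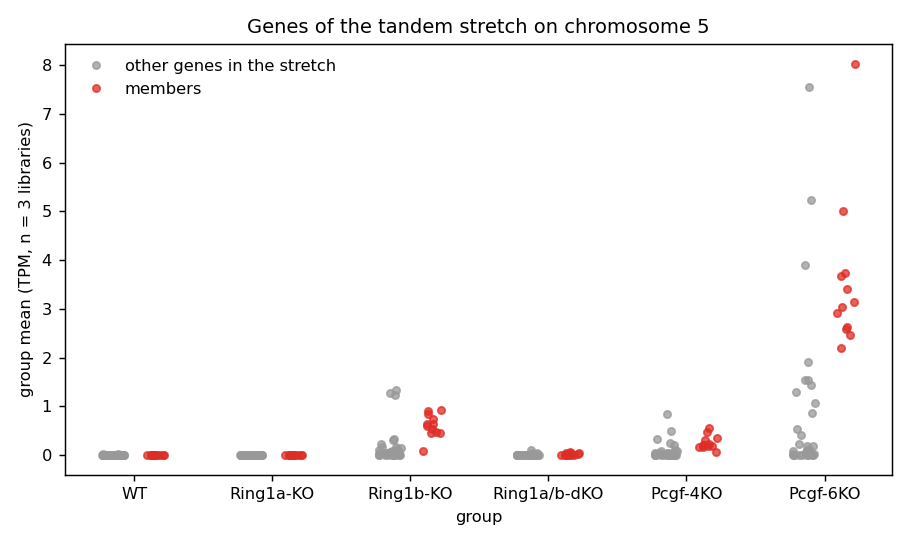
Group mean in TPM (y axis, n = 3 libraries) of the 12 members and the 31 other genes of the chromosome 5 stretch in each group (x axis), 1 point per gene. Members lay at 2.2 to 8.03 TPM in Pcgf-6KO, and every gene of the stretch was at 0.11 TPM or less in Ring1a/b-dKO.

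Gm7942 had the highest mean of the stretch, with 4.01, 4.8 and 15.3 TPM in Pcgf-6KO and 1.14, 0.72 and 0.93 TPM in Ring1b-KO. Gm3147 stood at 4.68, 3.69 and 2.83 TPM, with 0.463 TPM in Ring1b-KO, 0.47 TPM in Pcgf-4KO and 0 in all libraries of Ring1a/b-dKO. A430089I19Rik stood at 4.1, 0 and 6.95 TPM, so this copy ranged more widely between the libraries than the sum did. Gm7982 stood at 1.84, 3.49 and 4.87 TPM, with 0.733 TPM in Ring1b-KO and 0.05 TPM in Ring1a/b-dKO. All 12 shared at least 67.8% of their 25-base words with a transcript of another gene (median 98.6%), which means that most reads could have come from more than 1 copy. The level of each copy is uncertain for that reason. The sum is limited too, since it holds only the 12 copies the rule chose and reads can be shared with other genes of the stretch. Of the 31 other genes of the stretch, 3 reached 2 TPM in Pcgf-6KO but were at 1 TPM or more in Ring1b-KO, which kept them out (Gm16429, Gm6502 and AA792892, at 1.34, 1.23 and 1.27 TPM in Ring1b-KO). A further 6 were between 1 and 2 TPM in Pcgf-6KO, and 22 were under 1 TPM.

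The 6 protein-coding members on scaffolds not placed on a chromosome also had Ring1b-KO as the highest low group, and were at 0.033 TPM or less in Ring1a/b-dKO. AC140325.3 stood at 5.82, 4.72 and 5.57 TPM in Pcgf-6KO, 0.52, 0.71 and 0.73 TPM in Ring1b-KO and 0.04, 0.06 and 0 TPM in Ring1a/b-dKO. AC165294.1 stood at 5.76, 4.06 and 4.35 TPM, with means of 0.88 TPM in Ring1b-KO and 0.017 TPM in Ring1a/b-dKO. AC123873.1 stood at 6.8, 6.75 and 2.82 TPM, and its Ring1b-KO mean of 0.273 TPM came from 1 library at 0.82 TPM. Of the 68 protein-coding members above 0 in some low group, Ring1b-KO was the highest of them in 25 (36.8%), Pcgf-4KO in 22 (32.4%), Ring1a/b-dKO in 18 (26.5%) and WT in 3 (4.4%). Over 16044 other genes under 1 TPM in these 5 groups, not limited to protein-coding genes, the shares were 29.6%, 18.1%, 25.4% and 13.7%. Among members the share differed by class, as Ring1b-KO was the highest low group in 13.6% of the 66 MSTRG members. The protein-coding members and these other genes were not matched by class, so nothing is read from the difference in shares. Of the 19 of the 25 with a transcript sequence at hand, 11 shared 50% or more of their 25-base words with another gene, against 8 of the 43 other members, and 7 of the 25 lie in the chromosome 5 stretch.

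**Figure D5:**
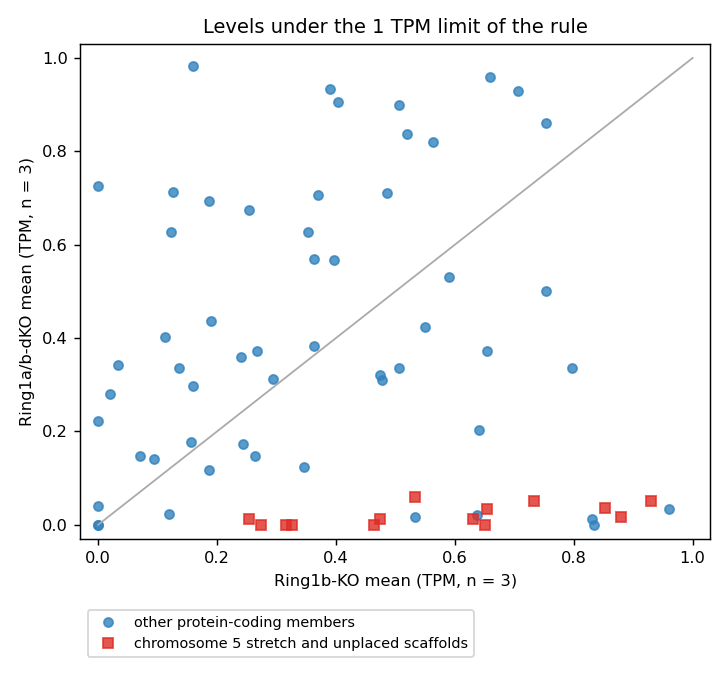
Mean in Ring1b-KO (x axis, TPM, n = 3) against mean in Ring1a/b-dKO (y axis, TPM, n = 3) of the 69 protein-coding members, with a line of equal values. The 14 members of the chromosome 5 stretch and the unplaced scaffolds lay at 0.06 TPM or less in Ring1a/b-dKO and at 0.253 to 0.93 TPM in Ring1b-KO.

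Usp17lb showed this order too, at 3.48, 3.2 and 2.6 TPM in Pcgf-6KO, 1.2, 0.66 and 1.02 TPM in Ring1b-KO, 0.26, 0.57 and 0.5 TPM in Pcgf-4KO and 0.1, 0 and 0 TPM in Ring1a/b-dKO. Its paralog Usp17la missed the rule by a Ring1b-KO mean of 1.02 TPM, at 3.03 TPM in Pcgf-6KO. Genes of the 2-cell-like state, named after their values were seen, were no members. Zscan4c stood at 11.8 ± 0.72 TPM in Ring1b-KO, 0.073 ± 0.021 in Ring1a/b-dKO, 1.63 ± 0.28 in Pcgf-4KO and 9.39 ± 1.3 in Pcgf-6KO (SD, n = 3), and Zscan4f at 19.8, 0.393, 2.08 and 14 TPM. Both were kept out by their level in Ring1b-KO and Pcgf-4KO. Duxf3 and Tcstv1 were over 1 TPM in Ring1b-KO (1.71 and 4.54 TPM) and also under 2 TPM in Pcgf-6KO (1.71 and 1.88 TPM). Zfp352, at 0.437 TPM in Ring1b-KO and 0.813 TPM in Pcgf-6KO, missed only the lower limit for Pcgf-6KO.

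Of the 246 members 197 passed the filter of 1 TPM or more in at least 3 libraries and entered the fit over all genes (limma on log2(TPM + 1), adjusted p under 0.05). In Pcgf-6KO 194 were called higher than in WT, 193 higher than in Pcgf-4KO and 193 higher than in Ring1a/b-dKO, and none lower. Over all 17842 genes tested 51.7%, 28.8% and 28.3% were called higher and 22.5%, 24% and 29.6% lower in these comparisons. The rule and the filter fix these counts, since a member passes the filter mainly through its Pcgf-6KO libraries, and nothing is read from them. The median log2 difference of the 197 was 1.694 against WT, 1.548 against Pcgf-4KO and 1.544 against Ring1a/b-dKO.

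Between the low groups the rule held both means under 1 TPM, so these counts too are a description. In Pcgf-4KO 41 of 197 (20.8%) were called higher and 1 lower than in WT, where 47.1% and 17.9% of all genes tested were. In Ring1a/b-dKO 36 (18.3%) were higher and 2 lower, against 48.6% and 15.8%. In Ring1b-KO 37 (18.8%) were higher and 3 lower, against 34.7% and 17.1%, and in Ring1a-KO 1 was higher and 1 lower, against 12.3% and 10.8%. The comparisons with WT share its libraries. Differences under 1 TPM are small on this scale, so a member not called may still have differed. The highest of the 5 low groups was Ring1a/b-dKO in 66 of the 203 members above 0 in some low group, Pcgf-4KO in 66, Ring1b-KO in 47, WT in 16 and Ring1a-KO in 8. As shares these were 32.5%, 32.5%, 23.2%, 7.9% and 3.9%, against 25.4%, 18.1%, 29.6%, 13.7% and 13.3% of the 16044 other genes under 1 TPM in these groups. The shares differed by class, as Ring1b-KO was the highest low group in 36.8% of protein-coding members and 13.6% of MSTRG members. The members and the other genes were not matched by class, so nothing is read from the differences. These shares are a description, since the rule used all group means.

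Of the long non-coding RNAs 35 of 40, and of the pseudogenes 21 of 35, had all 3 Pcgf-6KO libraries above all 15 others. Over all genes tested 17.6% showed this pattern, which the rule favours, so nothing is read from these counts. Gm12320, Hist3h2bb-ps and Mir670hg were among the members with this pattern. Gm12320, a long intergenic RNA named after its values were seen, was at 7.4, 7.33 and 7.44 TPM in Pcgf-6KO and 0.66, 0.51 and 0.73 TPM in WT. The pseudogene Hist3h2bb-ps stood at 5.13, 7.07 and 8.67 TPM in Pcgf-6KO and at most 0.88 TPM elsewhere. Mir670hg, the host transcript of a microRNA, was at 3.04, 3.96 and 4.34 TPM, with 0.72, 0.59 and 0.5 TPM in WT and 0.08, 0.11 and 0.08 TPM in Pcgf-4KO. In all 3 the WT mean was above that in Pcgf-4KO, at 0.633 against 0.4 TPM for Gm12320, 0.587 against 0.3 TPM for Hist3h2bb-ps and 0.603 against 0.09 TPM for Mir670hg. This is the reverse of the order of the medians over all members. Of the 197 members tested, only 1, a long non-coding RNA, was called lower in Pcgf-4KO than in WT (limma, adjusted p under 0.05). At most 1 of these 3 differences was thus called. A stretch of chromosome 15 from 77524852 to 77967126 held 3 members among 21 genes of the table. These were Apol7c, the pseudogene Gm8221 (5.28, 5.28 and 5.38 TPM) and the antisense RNA Gm17638 (2.96, 3.77 and 3.74 TPM). Whether the authors' quantification used strand is not given in the sources used here, so an antisense RNA and the gene opposite cannot be told apart. Eif3d, opposite Gm17638, was at 385 TPM in Ring1a/b-dKO, 394 in Pcgf-4KO and 393 in Pcgf-6KO. Gm17638 was at 0.403, 0.46 and 3.49 TPM in the same groups. The part of Eif3d reads in the level of Gm17638 was not tested.

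At the edge of the rule, the lowest members were Ccl2 and Gm42764, both at 2.003 TPM in Pcgf-6KO, and MSTRG.26117 at 2.01 TPM, while Gm26672, Gm20045 and 4930507D05Rik fell just short at 1.997 TPM. The members nearest the upper limit in another group were Gm28041 and Gm4316, both at 0.997 TPM in Pcgf-4KO, and MSTRG.16978 at 0.993 TPM in Ring1a/b-dKO. Gm15417, Tmem198 and Gm49066 were just over it, at 1.003, 1.01 and 1.013 TPM in Pcgf-4KO. The genes on either side of a threshold thus differed by less than the spread between libraries, and membership near it is a matter of hundredths of a TPM.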

How the data were processed

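The authors deposited a table of TPM per gene for 18 libraries, made from total RNA with a TruSeq RNA kit per the labels. Its 6 columns of group means were not used. The submitters' processing notes list TopHat2 2.1.1, RSEM, edgeR and GRCm38.p5. Neither the role of each nor the annotation release is given in the sources used here. Symbols, biotypes and positions came from GENCODE release M21 (GRCm38), promoters from RefSeq (GRCm38.p6, within 1000 bases of the gene's start). The 17842 genes that reached 1 TPM in 3 or more libraries were fitted as log2(TPM + 1), which understates the change of low genes, with limma 3.58.1 in R 4.3.3. The fit used 1 mean per group over all 18 libraries, two-sided tests and Benjamini-Hochberg adjustment over all genes. P-values measure only the spread between these libraries, which may be technical. The fit was tested on simulated data. An exact 0 is described as listed at 0. Shared sequence is the percentage of a gene's 25-base words found in a transcript of another gene. Members listed together are within 500000 bases of the next. Named were the 20 protein-coding members with the highest Pcgf-6KO mean, members on 23 gene lists or in families of 3 or more, the 3 highest non-coding members, and the genes nearest each threshold. Other names were chosen after their values were seen. The members and the lists were chosen with earlier results of these data known. Replicate numbers did not pair libraries. Alternatives were other thresholds, pseudocounts, filters, scalings, a replicate block and each library left out.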

Additional observations from a re-analysis of the deposited data

How the results depend on the processing

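With other thresholds the number of members went from 246 to 753 (Pcgf-6KO at 1 TPM or more), 65 (5 TPM), 117 (other groups under 0.5 TPM), 638 (under 2 TPM), 64 (every library past its threshold) and 69 (protein-coding genes only). Leaving out 1 library at a time gave 236 to 255. Median ratio scaling gave 209 and group medians 224. These scalings move the median of all genes tested, 0.33 for Pcgf-6KO against WT, to 0.03 (median ratio) and -0.06 (quantile). Members called in Pcgf-4KO against WT went from 42 to 67 with a pseudocount of 0.1, and in Ring1a-KO from 2 to 8 (0.1), 6 (0.5), 5 (median ratio) and 8 (quantile). With 1 library left out they were 34 to 40 and 1 to 2. For Ring1a/b-dKO against WT they were 26 to 35 (38 with all), for Ring1b-KO 31 to 38 (40 with all), and for Pcgf-6KO against WT 190 to 195, Pcgf-4KO 185 to 192 and Ring1a/b-dKO 182 to 188. Same-number libraries correlated at -0.109 to 0.071 over 15 pairs of groups, so the numbers do not pair them. With a replicate block 194, 192 and 191 members were called in the 3 Pcgf-6KO comparisons and 43, 38, 36 and 2 in Pcgf-4KO, Ring1a/b-dKO, Ring1b-KO and Ring1a-KO against WT. Of 2553 values of named genes under an alternative, 55 lost their call, 2 gained one and 0 reversed. Depth is unknown, which limits all values under 1 TPM.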
